A study of Mus musculus with 6 samples.

Results

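The nuclear-encoded genes of oxidative phosphorylation were followed in sorted cells of the mouse cerebral cortex. Members were chosen by symbol alone: rows of the count table beginning with Ndufa, Ndufb, Ndufc, Ndufs or Ndufv (complex I), Sdha to Sdhd (complex II), Uqcr (complex III), Cox4 to Cox8 (complex IV) or Atp5 (complex V). The 7 Ndufaf rows and 2 Sdhaf rows, which name assembly factors, were left out. This gave 85 of 24041 rows: 38 for complex I, 4 for complex II, 8 for complex III, 18 for complex IV and 17 for complex V. Cells had been electroporated with GFP together with mutant PRPF6 (3 libraries, replicates 1 to 3) or with GFP together with wild-type PRPF6 (3 libraries, replicates 1 to 3), then sorted for GFP. PRPF6 is a splicing protein of the tri-snRNP. RNA amounts were low and were amplified as full-length cDNA with SMART-Seq v4. The labels give neither the mutation, the promoter, the age or strain of the animals nor whether libraries came from separate animals. Both groups carry a PRPF6 plasmid, and the libraries include no group with GFP alone. The p-values set the difference between the groups against the spread among the 3 libraries of each, and part of that spread may be technical.

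Oxidative phosphorylation takes place in the inner mitochondrial membrane. Complexes I and II pass electrons from NADH and succinate to ubiquinone, complex III passes them to cytochrome c, and complex IV hands them to oxygen. Complexes I, III and IV pump protons, and complex V, the ATP synthase, uses the returning protons to make ATP. Most subunits are encoded in the nucleus and imported, and in the developing cortex the balance between glycolysis and this pathway is known to shift as progenitors become neurons.

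Promoters of these genes are known for sites of NRF1 and of ETS factors such as GABPA, so their letters were searched for in RefSeq promoter windows (GRCm38.p6, 250 bases before to 50 after an annotated start), which matched 67 of the 85 members. The NRF1 letters GCGCA, any base and GCGC stood on either strand in 17 of 67 members (25.4%), against 10.8% of 10755 tested genes with a window and 5.19% of all 27025 genes with one. The YY1 letters AAGATGGC stood in 9 of 67 members (13.4%), against 4.90% of tested genes. The ETS letters CCGGAAG stood in 16 of 67 (23.9%), against 18.4% of tested genes, and the CCAAT box in 29 of 67 (43.3%), against 43.1%. The 4 stretches that follow, from named genes of complexes II, IV and V, show where the NRF1 letters, in capitals, lie before the RefSeq start. They are examples: Sdha also had the letters before its start, 3 times, and is not shown. For Atp5g2 and Atp5c1 the GENCODE M21 gene begins further upstream, so their stretches lie inside that gene span.
Cox6a1 (chr5:115349026-115349160, minus strand): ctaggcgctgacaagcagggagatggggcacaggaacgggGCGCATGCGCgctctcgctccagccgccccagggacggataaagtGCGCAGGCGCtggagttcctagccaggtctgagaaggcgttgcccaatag
Sdhd (chr9:50603879-50603968, minus strand): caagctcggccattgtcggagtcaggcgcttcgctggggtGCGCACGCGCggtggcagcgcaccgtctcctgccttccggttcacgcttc
Atp5g2 (chr15:102671048-102671129, minus strand): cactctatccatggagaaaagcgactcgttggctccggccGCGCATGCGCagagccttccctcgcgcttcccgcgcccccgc
Atp5c1 (chr2:10080433-10080489, minus strand): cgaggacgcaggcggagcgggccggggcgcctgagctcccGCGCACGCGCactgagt
Such a match is a description of letters and not evidence of a bound factor. The 17 tested members with the NRF1 letters had a median log2 difference of 0.021, and the 48 tested members with a window but without them 0.0099.

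Library totals lay between 45115100 and 60600600 expected counts, and the members took 1.08% to 1.39% of them. Between 81 and 83 members were detected per library, and 81 passed the low-count filter and were tested. The 4 left out were Cox6a2, Cox7b2, Cox8b and Cox8c. Values are given as CPM (counts relative to the scaled library total). No gene of the radial glia and young neuron lists passed the adjusted test. At an unadjusted p under 0.05 (edgeR), 7 of 12 radial glia genes were higher with mutant PRPF6, against 2.18% of all tested genes. By the same measure 5 of 10 young neuron genes were lower, against 1.2%. Radial glia genes summed to 5172, 2865 and 4159 CPM with mutant and 2264, 2759 and 1982 CPM with wild-type PRPF6, and young neuron genes to 2588, 4025 and 3272 CPM with mutant and 6302, 4212 and 4833 CPM with wild-type PRPF6. All 12 radial glia genes had higher and all 10 young neuron genes lower fitted means with mutant PRPF6, and neither sum overlapped between groups. The mutant values were all above the wild-type values in 4 of 12 radial glia genes, against 4.6% of all tested genes, and below them in 3 of 10 young neuron genes, against 4.54%. Every gene of both lists was detected in all 6 libraries. In bulk RNA, fewer cells of a type and less RNA per cell cannot be told apart, and the part of cell mixture in these values was not tested.

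No member of any complex passed the test between mutant and wild-type PRPF6. Of the 81 tested members, 44 had a fitted mean above that of wild-type PRPF6 and 37 below, against 49.8% above and 50.2% below among all tested genes, with a median log2 difference of 0.021 (mutant minus wild-type) and the middle of the members between −0.059 and 0.096 (first and last quartile). Over all 14451 tested genes the median was −0.0013 and the quartiles were −0.26 and 0.25. With edgeR's quasi-likelihood test, 0 members had an adjusted p under 0.05 (lowest adjusted p = 1.00), as did 0 of all genes (0%). At an unadjusted p under 0.05 stood 0 members, against 3.38% of all tested genes (2.18% higher and 1.2% lower), and the lowest unadjusted p of a member was 0.118. DESeq2 called 11 of all tested genes and limma-voom 0, and both called 0 members and had 0 members at an unadjusted p under 0.05. The mutant libraries lay all above or all below the wild-type libraries in 0 of 81 members, against 9.14% of all tested genes.

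**Figure D1:**
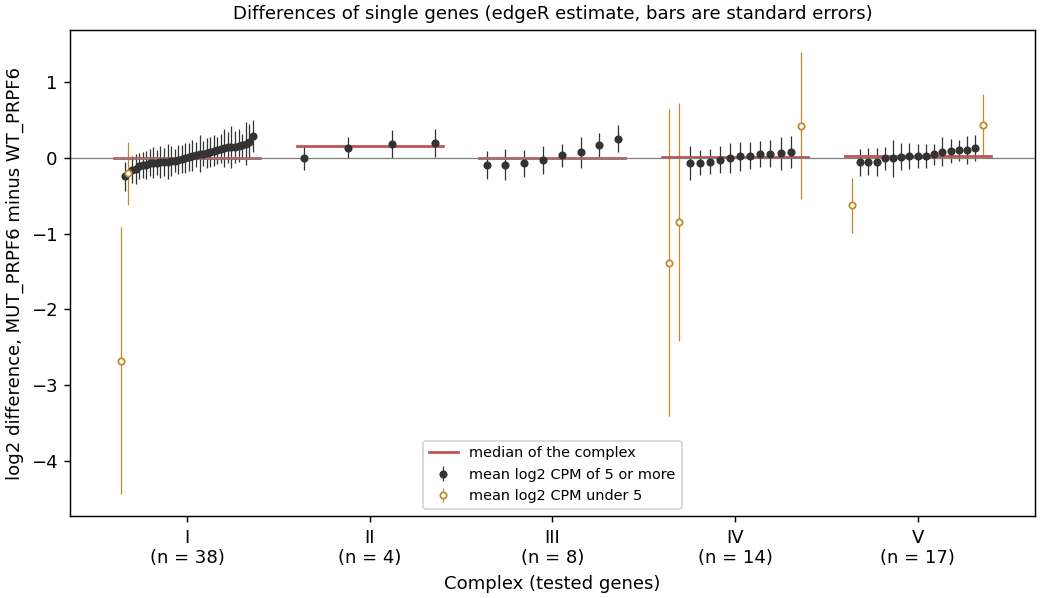
Log2 difference (mutant minus wild-type PRPF6, vertical axis) of each tested gene, grouped by complex on the horizontal axis; bars are standard errors, filled points are genes with a mean log2 CPM of 5 or more and open points are lower ones. The 74 filled points lie between −0.25 and 0.29, and the open points, down to −2.67, carry the widest bars.

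The members were measured more tightly than most genes. Their median standard error was 0.19 on the log2 scale, against 0.34 over all tested genes and 0.22 over the 6729 with a mean log2 CPM of 5 or more. The 95% interval of the difference lay between −1 and 1 for 74 of 81 members, against 6595 of 14451 tested genes. With a mean log2 CPM of 5 or more it did so for 74 of 74 members and 5620 of 6729 genes. Over the 74 members with a mean log2 CPM of 5 or more, the intervals reached no lower than −0.68 and no higher than 0.83. Changes inside these intervals could not be resolved with 3 libraries a group, and a p above the threshold does not show that the groups are alike.

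Summed over its genes, each complex overlapped between the groups. Complex I reached 3991, 2955 and 4105 CPM with mutant and 3538, 3704 and 3619 CPM with wild-type PRPF6. Complex II reached 1012, 789 and 989.8 CPM with mutant and 801, 933 and 842 CPM with wild-type PRPF6. Complex III reached 1231, 1017 and 1364 CPM with mutant and 1095, 1191 and 1133 CPM with wild-type PRPF6. For each of these the wild-type sums fell within the range of the mutant sums, and the same held for the rest: complex IV was at 2042, 1427 and 2078 CPM with mutant and 1784, 1863 and 1885 CPM with wild-type PRPF6, and complex V at 4788, 4379.7 and 5792 CPM with mutant and 4698, 4710.4 and 4899 CPM with wild-type PRPF6. Mutant replicate 2 was the lowest of the 6 libraries for all 5 complexes, and the highest was mutant replicate 1 or 3. The mean sum over all members was 12654 ± 1914 CPM with mutant and 12232 ± 273 CPM with wild-type PRPF6 (SD, n = 3 each).

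**Figure D2:**
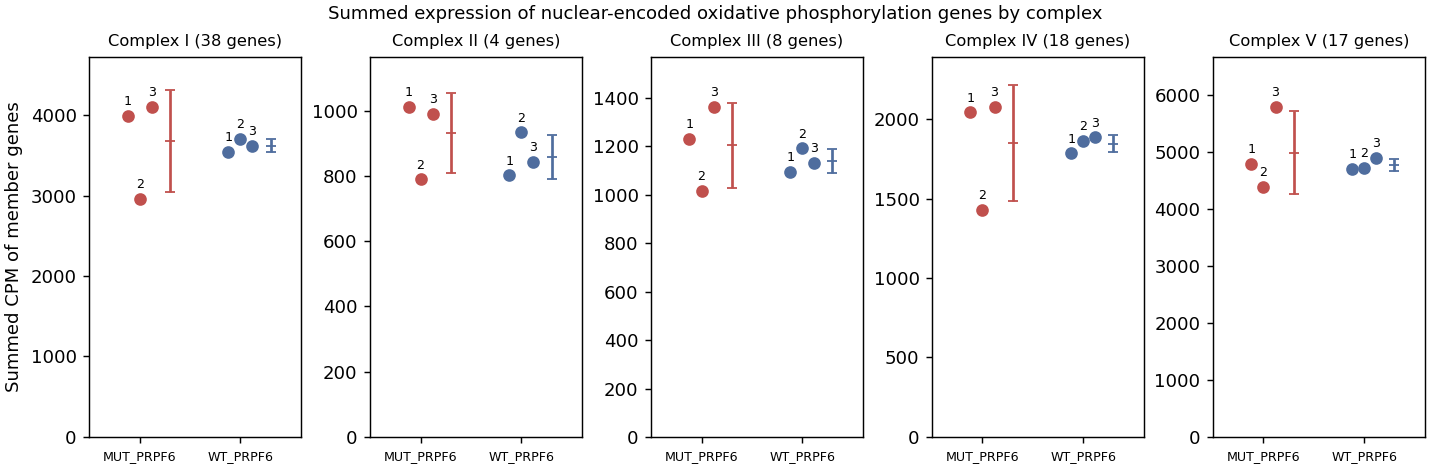
Summed CPM (vertical axis, from 0) of the member genes of each complex, with mutant PRPF6 libraries left of wild-type ones; numbers are replicates, and the dash with bars beside the points is the mean ± SD of 3 libraries. In every panel mutant replicate 2 is the lowest library and the wild-type points sit inside the range of the mutant points.

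The members moved together from library to library, and chiefly among the mutant ones. Mutant replicate 2 was the lowest of the 6 libraries in 65 of 81 members (80.2%), against 12.7% of all tested genes. In 60 of 81 members the 3 wild-type values lay inside the range of the mutant values, against 23.4% of all tested genes. As a median over tested members of log2(CPM + 0.5) minus the gene's mean over the 6 libraries, the level was 0.11, −0.31 and 0.17 in mutant replicates 1, 2 and 3, against −0.056, 0.019 and 0.031 in wild-type replicates 1, 2 and 3. The median standard deviation among the mutant libraries was 0.29 on the log2 scale and among the wild-type libraries 0.097. For all 6729 genes with a mean log2 CPM of 5 or more these were 0.26 and 0.21.

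Ribosomal protein genes, and short transcripts as a set, were also lowest in mutant replicate 2. The 76 cytosolic ribosomal protein genes were at 0.072, −0.36 and 0.16 in mutant replicates 1, 2 and 3, against −0.033, 0.045 and 0.12 in wild-type replicates 1, 2 and 3, and mutant replicate 2 was the lowest library in 70 of 76. Transcripts of the members are short, with a median of 760.5 bases (GENCODE M21, the shortest principal transcript, 80 tested members with a length) against 2831.5 bases over 14288 tested genes. The tested genes under 1000 bases include 51 of the members, and ribosomal genes were not taken out. Their median level was −0.23 in mutant replicate 2 and 0.079 and 0.088 in mutant replicates 1 and 3, with −0.022 to 0.056 in the wild-type libraries. Tested genes over 4000 bases had 0.17 in mutant replicate 2, −0.061 and −0.12 in mutant replicates 1 and 3, and 0.0053 to 0.076 in the wild-type libraries. Mutant replicate 2 also held the most of the microglia markers, which summed to 36.04, 869.9 and 42.6 CPM with mutant and 119.98, 317 and 238 CPM with wild-type PRPF6, with all 10 detected. The part of transcript length and of other cell types in the low values of this library was not tested.

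**Figure D3:**
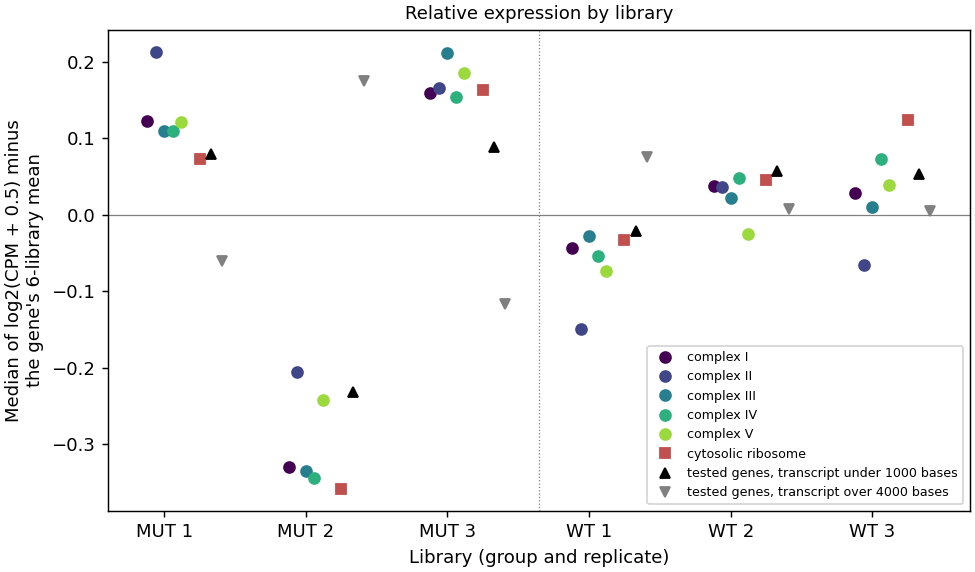
Median relative expression (vertical axis, log2 units around each gene's 6-library mean) in each library (horizontal axis), for the 5 complexes, the cytosolic ribosomal proteins and all tested genes with short or long transcripts. All complexes, the ribosomal genes and the short transcripts are lowest in mutant replicate 2, where long transcripts are highest.

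Without mutant replicate 2, 72 of 81 members had higher and 9 lower fitted means with mutant PRPF6, and the median log2 difference was 0.13. Mutant replicates 1 and 3 then lay above all wild-type libraries in 30 of 81 members and below in 2, against 11% above and 12.7% below among all tested genes. No member passed the adjusted test in that fit (lowest adjusted p = 0.704, edgeR), and 3 of 81 stood at an unadjusted p under 0.05, against 6.86% of the 14807 genes tested in it. These were Uqcrfs1, Ndufb5 and, lower, Ndufa4l2. Without mutant replicate 1 or mutant replicate 3 the balance turned the other way, with 25 higher and 56 lower, and 19 higher and 62 lower. Once trends with length and GC were taken out of every library, 64 members were higher and 17 lower, with a median of 0.074 where the median of all genes was 0.032, and 0 were called.

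Complex I oxidises NADH, and its 38 rows split evenly, 19 higher and 19 lower (median log2 difference −0.0018). Ndufv1, which binds NADH and holds the flavin, was at 139, 151 and 202 CPM with mutant PRPF6, against 149, 161 and 191 CPM with wild-type PRPF6, with a log2 difference of −0.025 ± 0.19 (SE). The groups overlapped, with mutant replicate 3 highest and mutant replicate 1 lowest. Ndufs1, the large iron-sulphur subunit, averaged 144 ± 12.2 CPM with mutant and 148 ± 13.4 CPM with wild-type PRPF6 (SD, n = 3 each). Ndufs3 and Ndufv2, other core subunits, had log2 differences of −0.066 ± 0.17 and −0.11 ± 0.17 (SE). Ndufab1, the mitochondrial acyl carrier protein, was at 0.16 ± 0.22 and Ndufa13, also known as GRIM-19, at 0.064 ± 0.20.

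Leaving aside Ndufa4l2, whose mean log2 CPM was under 1, the smallest p-value in each direction belonged to an accessory subunit. Ndufb5 (GRCm38, chromosome 3, 32736990 to 32751566, plus strand) stood at 100.5, 59.9 and 81.2 CPM with mutant PRPF6, against 66.7, 62.6 and 68.7 CPM with wild-type PRPF6. Its log2 difference was 0.29 ± 0.22 (SE; unadjusted p = 0.221 and adjusted p = 1.00 by edgeR), with a 95% interval of −0.21 to 0.78. Its gene span overlaps that of Mrpl47 on the opposite strand. Reads from any shared exon bases cannot be told apart without strand, and overlap of exons was not examined. Mutant replicate 2 was the lowest of all, so the groups overlapped. The difference was 0.096 without mutant replicate 1 and 0.46 without mutant replicate 2. Ndufa6 (chromosome 15, 82350140 to 82354322, minus strand) ran the other way, at 42.6, 40.7 and 51.2 CPM with mutant PRPF6, against 53.3, 55.4 and 50.9 CPM with wild-type PRPF6, with a log2 difference of −0.25 ± 0.19 (SE; unadjusted p = 0.228 and adjusted p = 1.00 by edgeR). Only mutant replicate 3 reached into the wild-type range. Ndufb10 averaged 94.5 ± 18.2 CPM with mutant and 105 ± 1.99 CPM with wild-type PRPF6 (SD, n = 3 each). By letter, the 10 Ndufb genes had a median of 0.097, the 15 Ndufa genes 0.055, the 8 Ndufs genes −0.048 and the 3 Ndufv genes −0.067. Apart from Ndufa4l2, Ndufs5 had the lowest counts of the complex, at 8.11, 8.68 and 8.35 CPM with mutant PRPF6, against 10.6, 9.75 and 8.65 CPM with wild-type PRPF6, and expected counts of this gene were not whole, so its level depends on how shared reads were divided.

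Complex II, succinate dehydrogenase, had the highest median of the 5, 0.16, with 3 of its 4 genes above 0. Sdha, the flavoprotein that oxidises succinate, was at 359, 312 and 378 CPM with mutant PRPF6, against 315, 341 and 299.8 CPM with wild-type PRPF6. Mutant replicate 2 lay inside the wild-type range and the other mutant libraries above it (log2 difference 0.13 ± 0.14, SE). Sdhb, the iron-sulphur subunit, averaged 231 ± 24.1 CPM with mutant and 233 ± 29.2 CPM with wild-type PRPF6 (SD, n = 3 each), and differed by −0.0092 ± 0.16 on the log2 scale (SE). The membrane anchors Sdhc and Sdhd had differences of 0.19 ± 0.19 (SE; unadjusted p = 0.324 and adjusted p = 1.00 by edgeR) and 0.18 ± 0.18 (SE). Sdhc was at 206, 141 and 188 CPM with mutant PRPF6, against 135, 169 and 163 CPM with wild-type PRPF6, and mutant replicate 2 again lay among the wild-type libraries. The sum over the 4 genes averaged 930.2 ± 123 CPM with mutant and 859 ± 67.5 CPM with wild-type PRPF6 (SD, n = 3 each).

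Complex III held Uqcrfs1, the Rieske iron-sulphur protein (chromosome 13, 30540308 to 30545362, minus strand), which was at 218, 149.9 and 209 CPM with mutant PRPF6, against 159, 162 and 163 CPM with wild-type PRPF6. The wild-type libraries lay close together, with mutant replicates 1 and 3 above and mutant replicate 2 below them, and the log2 difference was 0.25 ± 0.17 (SE; unadjusted p = 0.183 and adjusted p = 1.00 by edgeR). Without mutant replicate 2 it was 0.40 ± 0.14 (SE; edgeR, unadjusted p = 0.025, adjusted p = 0.704), and without mutant replicate 1 it was 0.15. The core proteins Uqcrc1 and Uqcrc2 also overlapped between groups. Uqcrc1 averaged 409.8 ± 59.3 CPM with mutant and 365 ± 37.7 CPM with wild-type PRPF6 (SD, n = 3 each). Uqcrc2 averaged 145 ± 19.97 CPM with mutant and 142 ± 4.74 CPM with wild-type PRPF6 (SD, n = 3 each). Uqcrb, a small subunit near the quinone site, and Uqcrh, the hinge protein, had log2 differences of −0.090 ± 0.20 and −0.099 ± 0.18 (SE). Over its 8 genes, 4 were higher and 4 lower (median 0.00041).

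Complex IV, cytochrome c oxidase, had 14 tested genes, 7 higher and 7 lower (median 0.0069). Cox4i1, the widely used form of subunit 4 and the complex IV gene with the most counts, was at 374, 259.8 and 365 CPM with mutant PRPF6, against 313, 323 and 329.8 CPM with wild-type PRPF6 (log2 difference 0.050 ± 0.17, SE). Mutant replicates 1 and 3 stood above and mutant replicate 2 below all wild-type libraries. Cox5a averaged 205 ± 34.4 CPM with mutant and 215 ± 9.17 CPM with wild-type PRPF6 (SD, n = 3 each), and Cox5b, Cox6a1, Cox6b1, Cox7a2 and Cox8a had log2 differences of −0.0020 ± 0.19, 0.025 ± 0.18, −0.025 ± 0.17, 0.016 ± 0.19 and −0.052 ± 0.17 (SE). Cox6c was at 158, 97.5 and 172 CPM with mutant PRPF6, against 155, 138 and 157 CPM with wild-type PRPF6, and Cox7c had a difference of 0.072 ± 0.21 (SE). Cox7a2l, which joins complexes III and IV into supercomplexes, averaged 93.9 ± 23.99 CPM with mutant and 90.4 ± 6.299 CPM with wild-type PRPF6 (SD, n = 3 each). Ndufa4, whose protein is now placed in complex IV despite its name, had a difference of 0.092 ± 0.21 (SE).

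Complex V contained the member with the most counts, Atp5b (chromosome 10, 128083273 to 128090391, plus strand), the catalytic beta subunit of the ATP synthase. It was at 1469, 1579 and 2187 CPM with mutant PRPF6, against 1630.3, 1530.3 and 1631 CPM with wild-type PRPF6, a log2 difference of 0.13 ± 0.17 (SE; unadjusted p = 0.472 and adjusted p = 1.00 by edgeR). Mutant replicate 3 stood above the other libraries. Its partner Atp5a1, the alpha subunit, averaged 936 ± 127 CPM with mutant and 907 ± 41.2 CPM with wild-type PRPF6 (SD, n = 3 each). The stalk subunits Atp5c1 (gamma), Atp5d (delta) and Atp5e (epsilon) and the peripheral stalk protein Atp5o (OSCP) had log2 differences of −0.0098 ± 0.16, 0.096 ± 0.14, −0.051 ± 0.19 and 0.023 ± 0.16 (SE). Atp5g1, Atp5g2 and Atp5g3 encode the same mature c-ring subunit with different import sequences, and differed by 0.10 ± 0.19, 0.021 ± 0.17 and 0.090 ± 0.16 (SE). Atp5l, a membrane subunit, was at −0.063 ± 0.18 (SE).

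The widest differences under the Atp5 prefix belonged to genes that are not core subunits. Atp5sl, also called Dmac2 and known for assembly of complex I, was at 12.5, 24.4 and 24.7 CPM with mutant PRPF6, against 42.4, 24.1 and 28.7 CPM with wild-type PRPF6. Its log2 difference was −0.63 ± 0.36 (SE; unadjusted p = 0.118 and adjusted p = 1.00 by edgeR), the smallest p of any member. Wild-type replicate 1 was highest and mutant replicate 1 lowest, while mutant replicates 2 and 3 lay just above wild-type replicate 2. Atp5s, known as coupling factor B, was at 21.9, 11.2 and 11.02 CPM with mutant PRPF6, against 11.3, 11.8 and 9.71 CPM with wild-type PRPF6, and mutant replicate 1 alone stood apart (log2 difference 0.43 ± 0.41, SE).

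Compared per transcript length, as TPM computed here over genes with a length, genes of complexes IV and V led the members. Atp5b was at 1968 ± 346 TPM with mutant and 1786 ± 74.02 TPM with wild-type PRPF6 (SD, n = 3 each). Cox6a1 followed at 981 ± 156 TPM with mutant and 957 ± 35.2 TPM with wild-type PRPF6, then Cox4i1 at 965 ± 137 TPM with mutant and 925 ± 7.03 TPM with wild-type PRPF6. The SDs of Cox6a1 and Cox4i1 overlap. The median TPM over tested members with a length was 489 for complex V, 483 for complex IV, 397 for complex III, 265 for complex II and 221 for complex I (means of the 6 libraries). Among the c-ring genes Atp5g3 was at 777 ± 82.2 TPM with mutant and 724 ± 26.97 TPM with wild-type PRPF6 and Atp5g2 at 609 ± 53.6 TPM with mutant and 595 ± 38.8 TPM with wild-type PRPF6. These levels depend on the transcript taken for length: for Atp5g1 it was 596 bases, where its longest transcript has 4715.

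Paralogues known from muscle or testis were at 0 or low. Cox7b2 and Cox8b had 0 counts in all 6 libraries, where 3 counts would be 0.0492 to 0.0684 CPM. Cox8c had counts only in wild-type replicate 3, at 0.12 CPM. Cox6a2, the muscle form of subunit 6a, had counts only in mutant replicate 1 (0.24 CPM) and wild-type replicate 3 (0.18 CPM). Cox7a1, another muscle form, was at 0.121, 0.502 and 0.114 CPM with mutant PRPF6, against 0.258, 0.574 and 0.4997 CPM with wild-type PRPF6. Cox6b2, known from testis, was at 10.2, 1.35 and 2.37 CPM with mutant PRPF6, against 1.805, 3.59 and 5.02 CPM with wild-type PRPF6, and mutant replicate 1 alone stood apart. Against these, Cox6a1, Cox7a2 and Cox6b1 lay between 99.3 and 299.9 CPM in every library.

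Ndufa4l2 and Cox4i2, low-oxygen paralogues of Ndufa4 and Cox4i1 that are known markers of pericytes, had the widest errors. Ndufa4l2 (chromosome 10, 127514967 to 127517154, plus strand, overlapping Shmt2 on the opposite strand) was at 0.103, 2.35 and 0.137 CPM with mutant PRPF6, against 0.107, 4.595 and 11.9 CPM with wild-type PRPF6. Its log2 difference was −2.67 ± 1.75 (SE; unadjusted p = 0.166 and adjusted p = 1.00 by edgeR), with a 95% interval of −6.71 to 1.36. Wild-type replicate 1 was as low as mutant replicates 1 and 3, so the groups overlapped. Cox4i2 was at 0, 0.965 and 0.479 CPM with mutant PRPF6, against 0.043, 0.935 and 2.798 CPM with wild-type PRPF6, with a difference of −1.38 ± 2.02 (SE). For both genes wild-type replicate 3 was highest. That library also had the highest sums of endothelial markers, 11.3, 69.7 and 4.88 CPM with mutant and 2.599, 9.65 and 185 CPM with wild-type PRPF6, with all 10 detected there, Flt1 at 0 in mutant replicate 3, Cdh5 at 0 in wild-type replicate 1 and Emcn at 0 in wild-type replicate 2. The same library was highest for meningeal fibroblast markers, 41.6, 187 and 45.3 CPM with mutant and 136, 158 and 1724 CPM with wild-type PRPF6, all 10 of them detected in every library. Red blood cell markers summed to 703, 1607 and 81.8 CPM with mutant and 993, 2822 and 17141 CPM with wild-type PRPF6. Without wild-type replicate 3 the log2 differences were −1.44 for Ndufa4l2 and −0.024 for Cox4i2, and without mutant replicate 2 they were −5.50 and −2.39. The part of vascular and meningeal cells in these values was not tested.

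**Figure D4:**
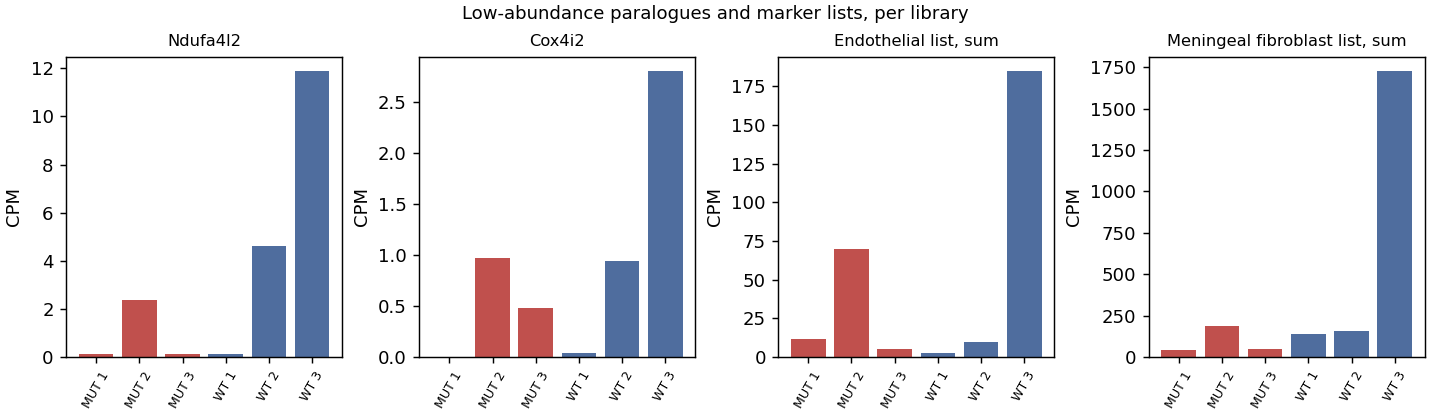
CPM (vertical axes, from 0, each panel on its own scale) of Ndufa4l2 and Cox4i2 and summed CPM of 10 endothelial and 10 meningeal fibroblast marker genes in each library; bars are single libraries, mutant PRPF6 in red and wild-type PRPF6 in blue. Wild-type replicate 3 is the highest library in all 4 panels, and mutant replicate 2 is the highest mutant library in each.

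Genes that build or feed the chain were taken from lists of known function, and no gene of any of these lists passed the adjusted test. For complex I assembly, 4 of 14 tested genes were higher and 10 lower (median log2 difference −0.079). Ecsit, an assembly factor that also acts in innate immune signalling, was at 42.6, 50.6 and 48.8 CPM with mutant PRPF6, against 78.8, 53.1 and 55.9 CPM with wild-type PRPF6, a log2 difference of −0.40 ± 0.22 (SE; unadjusted p = 0.0983 and adjusted p = 1.00 by edgeR). All mutant libraries lay below all wild-type libraries, as they did for Ndufaf7, against 4.54% of all tested genes. Ndufaf1 was at 18.03, 25.2 and 28.8 CPM with mutant PRPF6, against 47.9, 30.5 and 27.9 CPM with wild-type PRPF6 (log2 difference −0.56 ± 0.31, SE), and there mutant replicate 3 reached above wild-type replicate 3. For assembly of complexes II to V, 10 of 33 tested genes were higher and 23 lower (median log2 difference −0.090). Cox10, which makes a precursor of haem a for complex IV, ran opposite to most of its list, at 33.7, 30.9 and 36.2 CPM with mutant PRPF6, against 19.6, 27.4 and 23.6 CPM with wild-type PRPF6. The mutant libraries lay all above the wild-type ones in 1 of the 33 genes, against 4.6% of all tested genes. They lay all below in 0, against 4.54%. The gene with all mutant libraries above was Cox10. Its log2 difference was 0.51 ± 0.24 (SE; unadjusted p = 0.0661 and adjusted p = 1.00 by edgeR). Tmem70, needed to assemble the ATP synthase, averaged 79.1 ± 9.49 CPM with mutant and 66.1 ± 6.61 CPM with wild-type PRPF6 (SD, n = 3 each).

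For the TCA cycle and pyruvate entry, 13 of 20 tested genes were higher and 7 lower (median log2 difference 0.011). Suclg2, a subunit of succinyl-CoA ligase, had a log2 difference of 0.37 ± 0.22 and Pdhx, a binding protein of pyruvate dehydrogenase, of 0.30 ± 0.20 (SE). Of chain proteins outside the symbol rule, 8 of 10 tested were higher and 2 lower (median log2 difference 0.077), with Atpif1, the inhibitor of the ATP synthase, at −0.29 ± 0.18 and Etfa, an electron transfer flavoprotein, at 0.26 ± 0.19 (SE). The large subunit of the mitochondrial ribosome (27 of 48 higher, median 0.025) and mitochondrial protein import (18 of 28 higher, median 0.080) gave 0 genes at an unadjusted p under 0.05.

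Among regulators of mitochondrial transcription and DNA, 9 of 17 tested genes were higher and 8 lower (median log2 difference 0.047). At an unadjusted p under 0.05 (edgeR) stood 2 of the 17, against 3.38% of all tested genes. The mutant values lay all above the wild-type values in 3 of the 17, against 4.6% of all tested genes. They lay all below in 1, against 4.54%. Polg, the mitochondrial DNA polymerase, was at 98.2, 91.8 and 79.8 CPM with mutant PRPF6, against 68.5, 60.1 and 59.5 CPM with wild-type PRPF6, a log2 difference of 0.52 ± 0.17 (SE; unadjusted p = 0.0152 and adjusted p = 1.00 by edgeR). Polrmt, the mitochondrial RNA polymerase, was at 101, 75.001 and 78.2 CPM with mutant PRPF6, against 71.3, 26.2 and 47.9 CPM with wild-type PRPF6, a difference of 0.81 ± 0.34 (SE; unadjusted p = 0.046 and adjusted p = 1.00 by edgeR). In both, every mutant library was above every wild-type one, against 4.6% of all tested genes. Ppargc1a, the coactivator PGC-1alpha, was chosen for mention after its values were seen: it was at 19.7, 19.1 and 18.2 CPM with mutant PRPF6, against 9.26, 15.4 and 3.098 CPM with wild-type PRPF6 (log2 difference 1.03 ± 0.55, SE). Nrf1, Gabpa and Yy1, named for the searched letters, had log2 differences of 0.13 ± 0.17, −0.17 ± 0.20 and −0.17 ± 0.25 (SE).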

How the data were processed

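Per the submitters' processing notes, the authors' processing names RSEM and mm10, and the deposited table holds expected counts for each gene, not scaled for depth. The aligner, annotation and strand setting are not given. Expected counts were rounded, filtered with filterByExpr (14451 of 24041 genes kept) and scaled with TMM. Mutant and wild-type PRPF6 (3 libraries each) were compared with edgeR 4.0.16 in R 4.3.3 (robust quasi-likelihood test, two-sided, group only, Benjamini-Hochberg adjustment over all genes, threshold 0.05), tested on simulated data. CPM uses the library totals over the 14451 kept genes times the TMM factors, so 1 count was worth 0.0164 to 0.0228 CPM. Reads without molecular identifiers are not independent molecules, so counting limits cover counting error only. Alternatives used DESeq2 1.42.0, limma 3.58.1 and other filters, scalings and libraries.

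Members and the 14 other gene lists (314 of 316 entries found) were chosen with earlier results of these data known. Genes were named by a fixed list of roles, and within each complex by the smallest p per direction (2 each) and the highest and lowest count. In lists central to the chain the 2 smallest p were named. Smallest p required a mean log2 CPM of 1 or more. Ndufs5, Cox8b, Cox8c, Ndufaf7, Ppargc1a, Nrf1, Gabpa and Yy1 were named after their values were seen. A gene that the rule names is not reported here. Coordinates and lengths are GENCODE M21 (GRCm38), matched by symbol for 84 members. Of the members, 24 overlap another coding gene by gene span and 11 had values that were not whole. Mitochondrially encoded genes were not analysed here.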

Additional observations from a re-analysis of the deposited data

How the results depend on the processing

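The count of called members was 0 under every alternative run: other scalings and filters, the DESeq2 and limma-voom tests, edgeR without robust estimation, a threshold of 0.1, the replicate block, trends of length and GC removed, changed member lists, and each library left out. The medians over all members and over complexes I, III, IV and V lay close to 0 and changed sign in at least 1 alternative. The median of complex II was above 0 in every alternative run. The median over all members was −0.0089 with upper-quartile factors (36 higher, 45 lower, and −0.027 over all genes), −0.0027 with limma-voom and −0.0017 with the replicate block, against 0.021. Complex III was at −0.026, −0.014 and −0.0099 in these fits and −0.0019 with 1 CPM required in 3 libraries. Complex IV was at −0.021, −0.020 and −0.033, and complex V at −0.0063 with upper-quartile factors. Complex I was at 0.041 with length and GC trends removed and 0.14 without mutant replicate 2 and wild-type replicate 3, an alternative added after the data were seen, which put complex III at 0.10 and complex IV at 0.17. Leaving out each library in turn, the median ran over −0.069 to 0.13 for all members, −0.079 to 0.12 for complex I, 0.056 to 0.27 for complex II, −0.084 to 0.089 for complex III, −0.11 to 0.16 for complex IV and −0.069 to 0.13 for complex V, with the lowest values without mutant replicate 3 or mutant replicate 1 and the highest without mutant replicate 2. The cause was not tested. Deviations of same-numbered libraries had correlations of −0.013, 0.036 and −0.31 across genes, and those of differently numbered libraries −0.20 to 0.23. With 3 libraries a group these values cannot settle whether libraries were paired. The submitters' labels number the libraries 1, 4 and 5 in both groups, here replicates 1 to 3 in that order. What these numbers mark is not given. No pairing is stated, so the main test used none and the replicate block was run as an alternative. Of 56 named genes tested, 31 changed sign in at least 1 alternative, 4 of them under another scaling, and 0 were called in any. Depth was not limiting for most members, while Cox7a1 (5 to 35 counts per library) and Cox4i2 (0 to 140) rest on few counts. Ndufa4l2 had 5 to 594 counts per library and Cox6b2 67 to 595. Their standard deviations within groups were 1.82 and 1.04 on the log2 scale, against a median of 0.22 over tested members.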
